A study of Homo sapiens with 6 samples.

Results

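The genes described here encode the enzymes that build cholesterol and fatty acids, together with the proteins that switch these enzymes on. They were named from textbook roles: 40 symbols were listed, each was matched to a gene of the deposited expression table, and all 40 had a mean of at least 10 counts, which placed them among the 15953 genes tested of 50868 in the table. By role they comprised 5 regulators of the SREBP transcription factors, 19 genes of the sterol branch and 16 genes of the fatty acid branch. The cells were HEK-293T, a transformed human embryonic kidney line labelled wild type, kept for 12 h in medium with 10 µM nitidine chloride (3 libraries), a plant benzophenanthridine alkaloid, or in medium with the solvent DMSO alone (3 libraries). The study's title asks about mTORC1 signalling, the stress gene SESN2 and the receptor IGF2R, and lipid synthesis genes were measured as part of the whole transcriptome.

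Sterols and fatty acids are both made from cytosolic acetyl-CoA. Cholesterol is built through mevalonate, isoprenoid units, squalene and lanosterol, while fatty acids are built by carboxylation of acetyl-CoA, elongation and desaturation. Transcription of most of these enzymes is driven by the SREBPs, membrane-bound factors that SCAP escorts to the Golgi for cleavage when sterols are low and that the INSIG proteins hold in the endoplasmic reticulum when sterols are high. SREBP2, encoded by SREBF2, acts mainly on sterol genes and SREBP1, encoded by SREBF1, mainly on fatty acid genes, and mTORC1 is known to promote the action of both.

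Of the 40 genes, 21 fell and 4 rose after nitidine chloride, and 15 did not pass the test. Among all tested genes, 27% were called lower and 24.7% higher, so members of this group were called lower more often and higher less often than the table as a whole, by count. A call means an adjusted p under 0.05 from edgeR's quasi-likelihood test, with p-values adjusted by Benjamini-Hochberg over all tested genes, and all adjusted p-values below come from that test. The median log2 fold change, nitidine chloride over DMSO, was -0.25 for the 40 genes and 0.01 for all tested genes. Libraries of both groups did not overlap in level for 32 of the 40 genes, beside 60.7% of all tested genes. With scaling by library size alone in place of TMM, the median of all tested genes moved to 0.12 and 16 members were lower and 10 higher, and every direction below refers to the TMM scale. Under that scaling SCAP, ACAT2, SQLE, LSS and FASN lost their calls, and MVK, MVD, FDPS, CYP51A1, EBP and MLYCD were called higher. Levels are CPM, counts relative to the library total after TMM scaling, with SD over 3 libraries, and SE is the standard error of a log2 fold change.

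Library totals were 13273432 to 15620937 counts in the nitidine chloride libraries and 12688093 to 16357992 in the DMSO libraries. Of 6 genes known to mark this line, VIM, KRT8, KRT18, NEFM and NEFL reached 1 FPKM, with a summed level of 131.6 to 163.2 FPKM after nitidine chloride and 105 to 131.5 in DMSO. None of 8 markers of differentiated kidney, 6 of hepatocytes and 6 of blood cells reached 1 FPKM in any library, and UMOD, APOB, TTR, CD3E and HBB were at 0 throughout. Among 6 endothelial and fibroblast markers only COL1A1 reached 1 FPKM, and the summed level of the list was 4.34 to 4.75 FPKM after nitidine chloride and 2.44 to 2.78 in DMSO. The part of these marker differences in the results was not tested. The labels do not say whether replicates came from separate cultures, so the p-values measure the spread between these libraries, which may be technical. In bulk RNA, fewer cells of a type and less RNA per cell cannot be told apart.

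**Figure D1:**
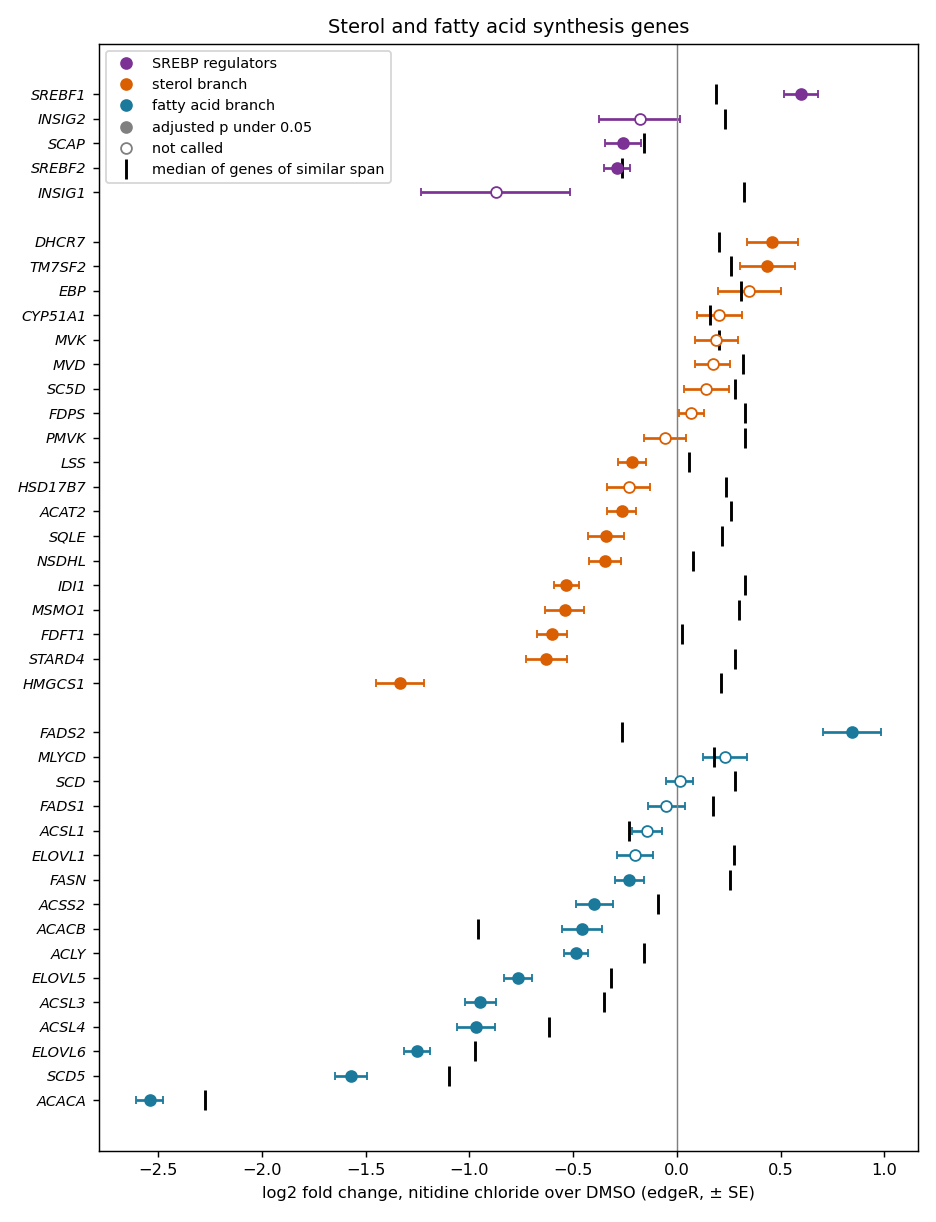
Log2 fold change of each of the 40 genes after nitidine chloride over DMSO (x axis, edgeR, bars are the SE), by role. Filled points are called at an adjusted p under 0.05, and the black ticks are the median of tested genes of similar genomic span; most sterol genes lie left of their tick, and ACACA at -2.54 is the lowest point.

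The 2 SREBP genes moved in opposite directions. SREBF1 rose, with 79.5, 77.6 and 74.1 CPM in the nitidine chloride libraries and 47.6, 56.3 and 48.9 CPM in the DMSO libraries, a log2 fold change of 0.60 ± 0.08 (SE, adjusted p = 6.2e-04). SREBF2 had 160.4, 176 and 164 CPM in the nitidine chloride libraries and 201, 199 and 212 CPM in the DMSO libraries. It fell by a log2 fold change of -0.29 ± 0.06 (adjusted p = 6.09e-03), with groups that did not overlap. SREBF1 (chromosome 17, 17810399 to 17837002, minus strand) shares 1055 bp at its end with RAI1 on the opposite strand, which fell with -0.61. The strand setting of the counting is not given in the sources used here, so reads in that stretch could belong to either gene.

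SCAP, the escort of the SREBPs, was lower by a smaller step. It had 80.3, 96.2 and 80.8 CPM after nitidine chloride and 101, 97.9 and 109 CPM in DMSO, a log2 fold change of -0.26 ± 0.09 with an adjusted p of 0.0397. The call for SCAP was lost in 5 of the 6 fits that left out a library, where it had adjusted p-values of 0.0596 to 0.131, and with a replicate block (adjusted p = 0.0771).

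INSIG1, a retention factor that is itself a well-known SREBP target, varied widely within each group. Its levels were 55.1, 112.5 and 94.8 CPM after nitidine chloride and 119, 112.9 and 249 CPM in DMSO, where replicate 3 stood far above the others. The groups nearly touched, and no nitidine chloride library exceeded a DMSO library. The log2 fold change was -0.87 ± 0.36 and did not pass (adjusted p = 0.0754). It was -0.41 without DMSO replicate 3, and the fits with a replicate block and with no filter on low counts gave adjusted p-values of 0.0455 and 0.0399. INSIG2, its paralog, had 19.3, 16.7 and 17.8 CPM after nitidine chloride and 24.2, 22.8 and 14.1 CPM in DMSO, with groups that overlapped and a log2 fold change of -0.18 ± 0.20 (adjusted p = 0.479). Without DMSO replicate 3, in which INSIG2 was lowest and INSIG1 highest, INSIG2 had -0.39 and an adjusted p of 0.0314. Without DMSO replicate 1 or 2 its value was -0.04 or -0.07, with adjusted p-values of 0.901 and 0.831.

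Of the 19 sterol branch genes, 9 fell, 2 rose and 8 did not pass, with a median log2 fold change of -0.22. With scaling by library size alone, 6 were lower and 7 higher. Only HMGCS1 fell by a log2 fold change of 1 or more in size, beside 11.7% of all tested genes called lower to that extent, and no member rose by as much, beside 3.87% of all tested genes. The summed level of the branch was 1428, 1404 and 1348 CPM after nitidine chloride and 1655, 1650 and 1589 CPM in DMSO. All nitidine chloride libraries thus lay below all DMSO libraries in the sum.

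At the entry to the branch, HMGCS1, the cytosolic HMG-CoA synthase, had the lowest value of the sterol genes. Its levels were 84.8, 89.6 and 65.8 CPM after nitidine chloride and 197, 201 and 209 CPM in DMSO. The log2 fold change was -1.33 ± 0.11 (adjusted p = 5.01e-05), and the mean after nitidine chloride was 0.396 of that in DMSO. HMGCS1 (ENSG00000112972) lies on chromosome 5 from 43289395 to 43313512 on the minus strand and overlaps no other gene with counts. ACAT2, the cytosolic thiolase that makes acetoacetyl-CoA, fell with -0.27 ± 0.07, but it overlaps SOD2 and TCP1 on the opposite strand, which had means of 1182 and 6001 counts beside 1441 for ACAT2.

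The steps from mevalonate to farnesyl diphosphate differed among themselves. IDI1, the isomerase of isopentenyl diphosphate, fell, with 112, 105 and 105 CPM after nitidine chloride and 162, 152 and 151 CPM in DMSO, a log2 fold change of -0.53 ± 0.06 (adjusted p = 2.33e-04). The kinases MVK and PMVK, the decarboxylase MVD and the farnesyl diphosphate synthase FDPS did not pass, with log2 fold changes of 0.19, -0.06, 0.17 and 0.07. MVK and MVD had groups that did not overlap, the nitidine chloride libraries being above the DMSO libraries by less than the test required. Leaving out single libraries moved these values to between 0.09 and 0.24 for MVK, 0.10 and 0.21 for MVD and 0.04 and 0.10 for FDPS, with no call.

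The genes of the enzymes that make and close squalene were all lower. FDFT1, squalene synthase, fell with 71.4, 80.6 and 76.4 CPM after nitidine chloride and 114, 122 and 111 CPM in DMSO, a log2 fold change of -0.60 ± 0.07 (adjusted p = 2.87e-04). SQLE, squalene epoxidase, fell with -0.34 ± 0.09 (adjusted p = 0.0134), and its nitidine chloride libraries ranged from 113 to 142 CPM against 158 to 166 CPM in DMSO. LSS, lanosterol synthase, fell with -0.22 ± 0.07 (adjusted p = 0.0303). The calls of SQLE and LSS did not hold everywhere: SQLE reached an adjusted p of 0.0622 without DMSO replicate 2 and LSS one of 0.0548 to 0.12 in the 4 fits without a library in which it was lost, and one of 0.0576 with no filter on low counts.

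Among the enzymes that turn lanosterol into cholesterol, 2 fell, 2 rose and the others did not pass. These enzymes are CYP51A1, TM7SF2, MSMO1, NSDHL, HSD17B7, EBP, SC5D and DHCR7. Of all tested genes, 27% were lower and 24.7% higher. MSMO1, the methylsterol oxidase, fell, with 62.8, 56.5 and 49.5 CPM after nitidine chloride and 84.9, 79.4 and 81.2 CPM in DMSO, a log2 fold change of -0.54 ± 0.09 (adjusted p = 1.98e-03). NSDHL, the sterol dehydrogenase that works next to it, fell with -0.35 ± 0.08 (adjusted p = 7.1e-03). HSD17B7, the ketosteroid reductase of the same step, had -0.23 ± 0.10 and did not pass (adjusted p = 0.0998), although its groups did not overlap.

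DHCR7, the last reductase of the pathway, rose. Its levels were 139, 139 and 121 CPM after nitidine chloride and 111, 99.1 and 79.6 CPM in DMSO, a log2 fold change of 0.46 ± 0.12 (adjusted p = 0.0158). TM7SF2, the sterol C14 reductase, rose as well, with 12.3, 13.4 and 11.8 CPM after nitidine chloride and 9.2, 10.6 and 7.93 CPM in DMSO, a log2 fold change of 0.44 ± 0.13 (adjusted p = 0.0274). Each call was lost when some single libraries were left out, at adjusted p-values of 0.0504 and 0.0505 for DHCR7 without nitidine chloride replicate 1 or 2, and of 0.0582 to 0.0896 for TM7SF2 in 4 of 6 such fits. VPS51, with a mean of 892.5 counts beside 156 for TM7SF2, overlaps it by 16 bp on the same strand, and AP002387.1 overlaps DHCR7 on the opposite strand with a mean of 70.7 counts against 1644.

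The remaining enzymes of this stretch did not pass. CYP51A1, the lanosterol demethylase, had 238, 202 and 190.2 CPM after nitidine chloride and 199, 186 and 162 CPM in DMSO, with overlapping groups and a log2 fold change of 0.20 ± 0.11. EBP, the sterol isomerase, had 47.5, 40.1 and 45.3 CPM after nitidine chloride and 27.7, 42.0 and 34.4 CPM in DMSO, again overlapping, with 0.35 ± 0.15 (adjusted p = 0.0885). Without DMSO replicate 2, the highest DMSO library for EBP, its value was 0.53 and the adjusted p 0.0199, and without DMSO replicate 1 they were 0.21 and 0.214. SC5D, the sterol desaturase, had 0.14 ± 0.11. In fits without single libraries CYP51A1 ranged from 0.11 to 0.27 and SC5D from 0.05 to 0.23, with no call.

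STARD4, a carrier that moves cholesterol between membranes, fell with the second lowest value of the branch. It had 32.2, 26.0 and 28.4 CPM after nitidine chloride and 41.9, 46.9 and 44.9 CPM in DMSO, a log2 fold change of -0.63 ± 0.10 (adjusted p = 1.37e-03). STARD4 (chromosome 5, 111496033 to 111512590) lies on the minus strand and overlaps STARD4-AS1, which had a mean of 1.5 counts.

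**Figure D2:**
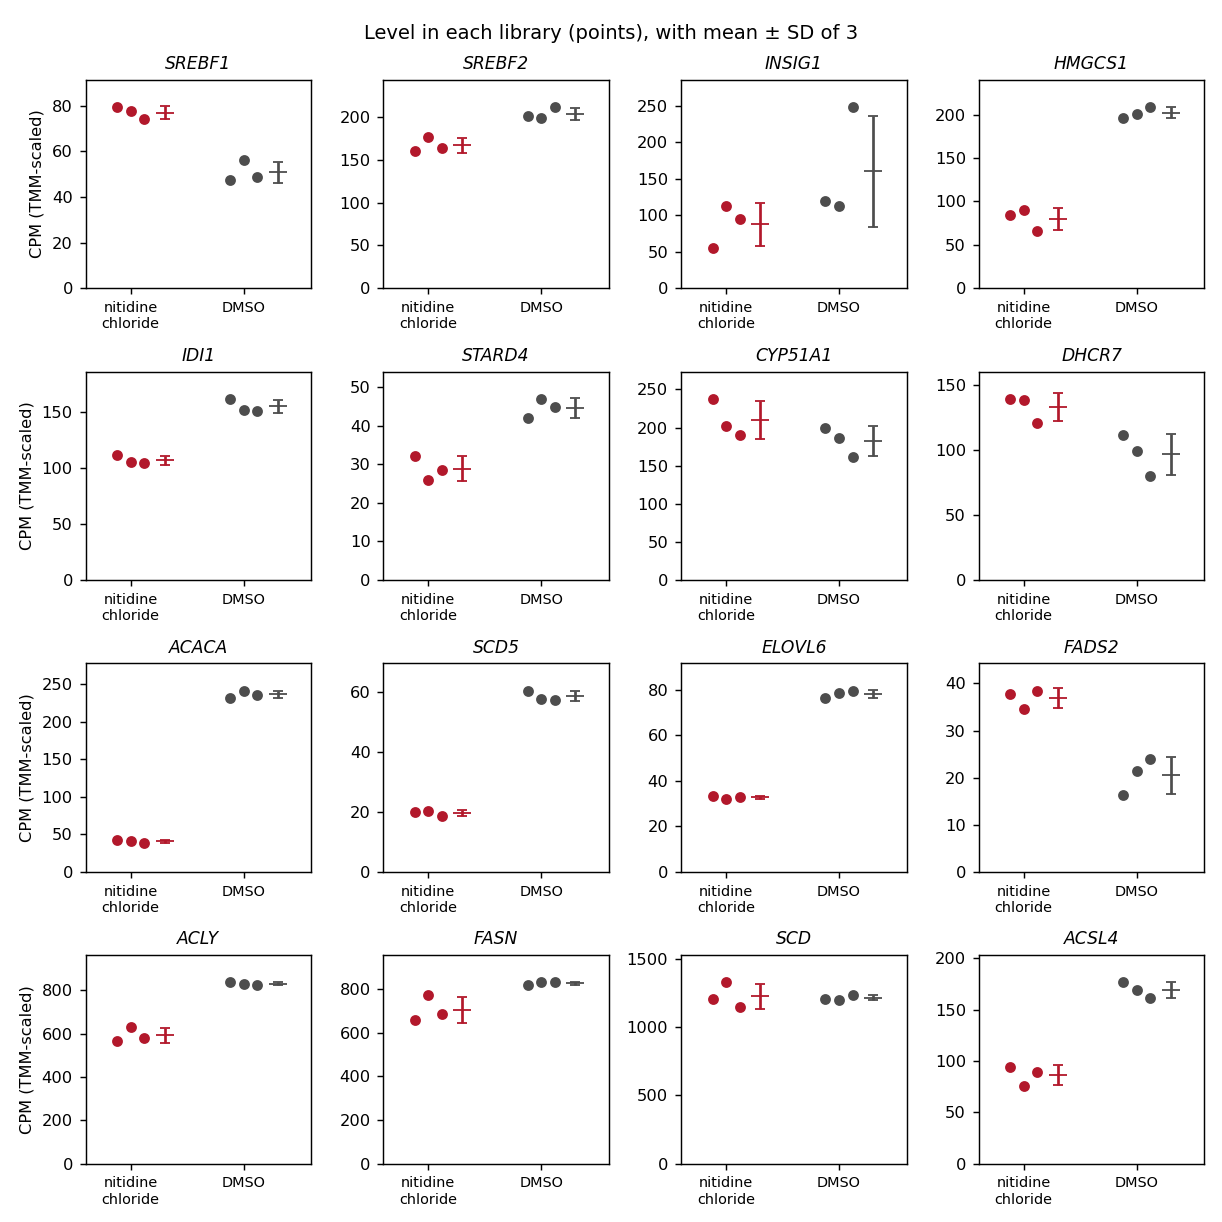
Level of 16 of the genes in each library, in CPM after TMM scaling (y axes start at 0), with nitidine chloride libraries in red left of DMSO libraries in grey; points are replicates 1 to 3 from left to right and bars are the mean ± SD of 3. The groups are well apart for HMGCS1, ACACA, SCD5 and ELOVL6, while INSIG1 has 1 DMSO library at 249 CPM and the groups overlap for SCD.

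Promoters were searched because these genes share a known control, and SREBPs act at sterol regulatory elements with help from NF-Y, the factor that binds the CCAAT box. RefSeq windows on GRCh38.p14, from 250 bases before to 50 after a gene start, were at hand for 36 of the 40 genes, some with several starts. The letters CCAAT, read on both strands, were found in a window of 28 of these 36 genes (77.8%), that is in 14 of 16 sterol genes, 12 of 15 fatty acid genes and 2 of 5 regulators. The share was 43.3% of 10990 tested genes with a window and 39.7% of all 27305 genes of the RefSeq table. Among the members, 14 of 17 that fell, 3 of 4 that rose and 11 of 15 that did not pass had a CCAAT match, so the match did not separate the directions.

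The sterol regulatory element in the form TCACNCCAC, also read on both strands, was found in 2 of the 36 genes, SREBF2 and ACSL1, and in 1.36% of tested genes with a window. The E-box CACGTG was found in 5 of 36 members and in 12.7% of tested genes. No match in a window says only that these letters are absent there. The SREBF2 match lies 133 bases before the gene start, and a CCAAT box read on the other strand begins 106 bases before it, without overlap. Its surroundings at chr22:41832962-41832991 (plus strand) are shown because SREBF2 encodes the factor of this element, which is in capitals.
SREBF2: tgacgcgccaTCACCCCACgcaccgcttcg

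The next stretches carry CCAAT boxes, in capitals as CCAAT or, on the other strand, ATTGG. They are shown 5′ to 3′ along the gene for 3 genes that fell (HMGCS1, MSMO1 and STARD4) and 1 that rose (DHCR7), and each is the part of its 250 bases that no exon in GENCODE release 29 covers. They lie at chr5:43313513-43313662 (minus strand), chr4:165327419-165327622 (plus strand), chr5:111512591-111512785 (minus strand) and chr11:71448436-71448643 (minus strand). MSMO1 has 3 boxes in its stretch, 185, 139 and 76 bases before the gene start, and STARD4 has 2, at 161 and 130 bases. HMGCS1 has 1 in its stretch, at 155 bases, and DHCR7, which rose, has 2 at 94 and 48 bases. Outside the stretches shown, the same windows hold a further box for HMGCS1, at 100 bases, and for MSMO1, at 34 bases. Another start of HMGCS1 and another of DHCR7 have no such box in their windows.
HMGCS1: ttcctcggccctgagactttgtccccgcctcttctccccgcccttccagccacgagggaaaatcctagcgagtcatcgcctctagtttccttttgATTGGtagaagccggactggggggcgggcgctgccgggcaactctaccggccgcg
MSMO1: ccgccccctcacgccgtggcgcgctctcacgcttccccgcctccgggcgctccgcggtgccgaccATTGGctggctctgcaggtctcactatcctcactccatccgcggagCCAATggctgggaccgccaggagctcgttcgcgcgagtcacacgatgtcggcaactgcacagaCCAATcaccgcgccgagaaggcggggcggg
STARD4: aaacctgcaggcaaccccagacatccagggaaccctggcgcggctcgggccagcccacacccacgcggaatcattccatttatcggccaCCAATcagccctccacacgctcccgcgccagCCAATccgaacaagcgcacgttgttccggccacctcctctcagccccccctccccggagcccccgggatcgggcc
DHCR7: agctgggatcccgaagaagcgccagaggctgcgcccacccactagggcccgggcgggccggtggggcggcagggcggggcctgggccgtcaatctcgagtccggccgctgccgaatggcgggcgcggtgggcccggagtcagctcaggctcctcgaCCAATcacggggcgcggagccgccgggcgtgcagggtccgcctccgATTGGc

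Of the 16 fatty acid genes, 10 fell, 1 rose and 5 did not pass, with a median log2 fold change of -0.43. The summed level of the branch was 3060.1, 3362 and 3019 CPM after nitidine chloride and 3998, 4009 and 4036 CPM in DMSO. ACACA, SCD5 and ELOVL6 fell by a log2 fold change of 1 or more in size, beside 11.7% of all tested genes called lower to that extent. Over all tested genes, 27% were lower and 24.7% higher.

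RNA of the genes that supply and carboxylate acetyl-CoA was lower. ACLY, which cleaves citrate into acetyl-CoA, fell, with 566, 632 and 578 CPM after nitidine chloride and 835, 829 and 822 CPM in DMSO, a log2 fold change of -0.49 ± 0.06 (adjusted p = 3.46e-04). ACSS2, which makes acetyl-CoA from acetate, fell with -0.40 ± 0.09 (adjusted p = 7.5e-03). ACACA, the acetyl-CoA carboxylase of the cytosol and the committed step of fatty acid synthesis, had the lowest value of all 40 genes. It had 41.9, 41.8 and 38.3 CPM after nitidine chloride and 232, 242 and 236 CPM in DMSO, a log2 fold change of -2.54 ± 0.06 (adjusted p = 4.28e-07). Its paralog ACACB, the carboxylase at the mitochondrial membrane whose product restrains fatty acid oxidation, fell less, with 19.4, 21.5 and 19.99 CPM after nitidine chloride and 25.8, 27.6 and 30.1 CPM in DMSO (-0.46 ± 0.10, adjusted p = 5.07e-03). MLYCD, the decarboxylase that removes malonyl-CoA, had 18.5, 18.1 and 16.3 CPM after nitidine chloride and 13.5, 15.9 and 15.6 CPM in DMSO. Its groups did not overlap, but its log2 fold change of 0.23 ± 0.11 did not pass (adjusted p = 0.106).

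FASN, the fatty acid synthase, was lower by a small step. It had 657, 774 and 686 CPM after nitidine chloride and 818, 831 and 831 CPM in DMSO, a log2 fold change of -0.23 ± 0.07 (adjusted p = 0.0278). That call was lost in 5 of the 6 fits that left out a library, at adjusted p-values of 0.066 to 0.0833. The elongases differed in size of change. ELOVL6, which extends saturated chains made by the synthase, fell, with 33.3, 32.2 and 32.9 CPM after nitidine chloride and 76.3, 78.5 and 79.7 CPM in DMSO (-1.25 ± 0.06, adjusted p = 3.72e-06). ELOVL5, an elongase of polyunsaturated chains, fell with -0.77 ± 0.07 (adjusted p = 5.88e-05), and ELOVL1, which makes very long chains, had -0.20 ± 0.09 and did not pass (adjusted p = 0.0825).

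Both stearoyl-CoA desaturases, which make monounsaturated fatty acids, were expressed and had different values. SCD had 1203, 1325 and 1147 CPM after nitidine chloride and 1204, 1201 and 1235 CPM in DMSO, with overlapping groups and a log2 fold change of 0.01 ± 0.07 (adjusted p = 0.878). SCD5, its paralog, fell, with 20.1, 20.5 and 18.6 CPM after nitidine chloride and 60.6, 57.7 and 57.6 CPM in DMSO, a log2 fold change of -1.57 ± 0.08 (adjusted p = 3.14e-06). SCD spans 17.7 kb on chromosome 10 and SCD5 169 kb on chromosome 4.

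The desaturases of polyunsaturated fatty acids are neighbours on chromosome 11 and also had different values. FADS2, the delta-6 desaturase, rose, with 37.7, 34.6 and 38.5 CPM after nitidine chloride and 16.3, 21.3 and 23.9 CPM in DMSO, a log2 fold change of 0.84 ± 0.14 (adjusted p = 1.65e-03). FADS1, the delta-5 desaturase, had 78.7, 96.1 and 81.0 CPM after nitidine chloride and 92.0, 85.5 and 87.5 CPM in DMSO, with overlapping groups and -0.05 ± 0.09. In the table the whole of FADS1 (61799625 to 61829318, minus strand) lies inside the bounds of FADS2 (61792980 to 61867354, plus strand), as does FEN1 on the plus strand, which had a mean of 3249 counts and rose with 0.20. How much their reads add to the FADS2 value was not tested.

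The genes of acyl-CoA synthetases, which activate free fatty acids, were lower in part. ACSL4, which prefers arachidonic acid, fell, with 94.6, 75.3 and 89.5 CPM after nitidine chloride and 176, 169 and 161 CPM in DMSO (-0.97 ± 0.09, adjusted p = 9.07e-05). ACSL3, which is known from lipid droplets, fell with -0.95 ± 0.07 (adjusted p = 3.22e-05). ACSL1 had -0.14 ± 0.07 and did not pass (adjusted p = 0.131), except without nitidine chloride replicate 2 (-0.19, adjusted p = 0.0471).

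All 4 members that rose, SREBF1, TM7SF2, DHCR7 and FADS2, overlap another tested gene, as do 4 others. Without these 8 genes, a count added after the data had been seen, 19 of 32 members were lower. That 0 of the 32 were called higher was fixed by the removal, which takes out all 4 that rose. At an unadjusted p under 0.05 in edgeR's quasi-likelihood test, 0 of these 32 were higher, and DESeq2 and limma-voom also called 0 higher. These fits use the same counts and the same 32 genes, so they are no separate check. With scaling by library size alone, 5 of the 32 were higher and 15 lower. Of all tested genes, 38.2% overlap another tested gene, and of these 23.5% were higher and 23.2% lower. Of those that do not, 25.4% were higher and 29.4% lower. The tested genes that overlap the 4 had log2 fold changes of -0.61 (RAI1), -0.04 (VPS51), 0.14 (AP002387.1), -0.05 (FADS1) and 0.20 (FEN1). Whether shared reads add to the 4 rises was not tested.

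The genes with the highest levels, SCD, ACLY and FASN, kept their order, while ranks further down changed. Levels between genes are compared as CPM per kb of exon, the exons of GENCODE release 29 merged per gene. SCD led, with 228 ± 17.0 after nitidine chloride and 226 ± 3.52 in DMSO, followed by ACLY with 113 ± 6.71 after nitidine chloride and 159 ± 1.29 in DMSO (SD, n = 3 each). FASN came next with 75.4 ± 6.52 after nitidine chloride and 88.3 ± 0.797 in DMSO. HMGCS1 ranked 17 of 40 with 17.0 ± 2.68 CPM per kb after nitidine chloride, and 7 with 43.0 ± 1.33 in DMSO. ACACA ranked 37 after nitidine chloride and 20 in DMSO, and DHCR7 ranked 7 after nitidine chloride and 17 in DMSO. The lowest genes were MLYCD, ACACB and HSD17B7 after nitidine chloride and MLYCD, FADS2 and ACACB in DMSO.

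The branches differ in genomic span, which counts introns as well as exons. The median span was 18.7 kb in the sterol branch, where the longest gene has 43.7 kb, and 72.8 kb in the fatty acid branch, where the longest, ACACA, has 322 kb. In these libraries fold change varied with span over all genes: 80.4% of the 2785 tested genes of 100 kb or more were lower and 2.12% higher, whereas 6.3% of the 2396 genes of 10 to 20 kb were lower and 44.2% higher. All 5 fatty acid genes of 100 kb or more (ACACA, SCD5, ELOVL6, ACACB and ACSL4) fell, with a median log2 fold change of -1.25 beside -1.10 for all genes of that class. Across the 16 fatty acid genes, Spearman's rho between span and log2 fold change was -0.78, and across the 19 sterol genes it was -0.24. These coefficients describe genes measured in the same 6 libraries.

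Sterol genes of 10 to 50 kb were lower more often, by count, than all genes of that length. Of the 7 sterol genes between 10 and 20 kb, 3 fell and 0 rose, and of the 9 between 20 and 50 kb, 5 fell and 1 rose, beside 12.2% lower and 30.8% higher of 3875 tested genes of 20 to 50 kb. The 3 sterol genes under 10 kb were IDI1, which fell, TM7SF2, which rose, and EBP. Their median log2 fold change was 0.35, beside 0.17 for all genes under 10 kb, of which 31.2% were higher and 10.2% lower. Each member was also set against tested genes whose span lay within a factor of 0.8 in either direction. Of the 19 sterol genes, 15 were below the median of such genes, with a median difference of -0.39. Of the 16 fatty acid genes, 12 were below, with a median difference of -0.29, so the branches were closer by this measure than by their unadjusted medians of -0.22 and -0.43.

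HMGCS1 was farthest below genes of its span, with -1.33 against a median of 0.21, and 0.984% of those genes were lower. STARD4 had -0.63 against 0.28. INSIG1 had -0.87 against 0.32, but its value was not called and was -0.41 without DMSO replicate 3. The values of ACACA, SCD5 and ELOVL6 were nearer to their span medians of -2.27, -1.10 and -0.97, with differences of -0.27, -0.47 and -0.28. Of genes of similar span, 33.7%, 18.3% and 29.1% had lower values. Farthest above was FADS2, with 0.84 against -0.27 and 97.2% of such genes lower, followed by ACACB with -0.46 against -0.96 and SREBF1 with 0.60 against 0.19. The span of FADS2 is that of the table, which includes FADS1. SREBF2 and SCAP, at -0.29 and -0.26, lay close to their span medians of -0.26 and -0.16.

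**Figure D3:**
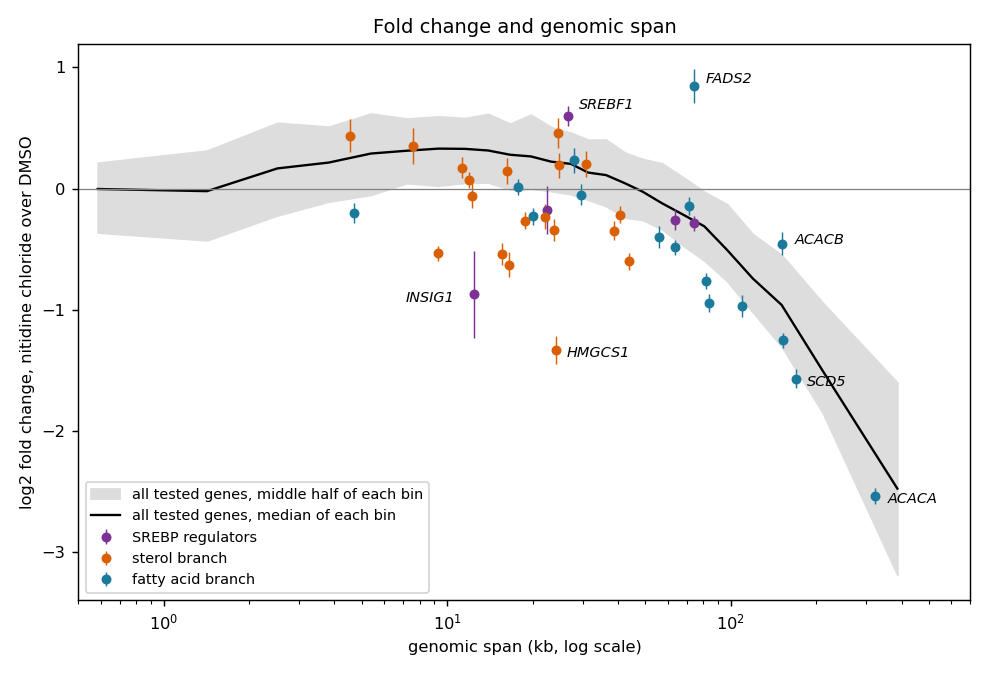
Log2 fold change after nitidine chloride over DMSO against genomic span (log scale) for the 40 genes, with the SE as bars. The black line and grey band give the median and the middle 50% of all tested genes in bins of span. Members below the band include HMGCS1, INSIG1, STARD4 and FASN. FADS2, SREBF1 and ACACB lie above it, and ACACA lies inside it at -2.54.

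Other genes of lipid metabolism, in lists chosen by role, were called in both directions. So were all tested genes, with 24.7% higher and 27% lower, shares that stand beside each list below. Of 14 genes that process or assist the SREBPs, 3 rose, 2 fell and 9 did not pass. The proteases that release the SREBPs were both lower, MBTPS2 (site-2 protease) with -0.56 ± 0.07 and 58.3 ± 1.59 CPM after nitidine chloride against 86.1 ± 5.48 in DMSO, and MBTPS1 (site-1 protease) with -0.48 ± 0.07. RNF139, a ubiquitin ligase of the endoplasmic reticulum, rose with 0.69 ± 0.06, and NFYB, a subunit of NF-Y, rose with 0.36 ± 0.12. These 4 genes had adjusted p-values of 0.0443 or less in edgeR's quasi-likelihood test.

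In the liver X receptor axis and sterol transport, 7 of 21 tested genes rose, 6 fell and 8 did not pass, with a median of 0.08. That is 33.3% higher and 28.6% lower, beside 24.7% and 27% of all tested genes. SMPDL3A, a phosphodiesterase gene induced by these receptors, rose with 1.10 ± 0.12, and RXRB, a partner receptor, rose with 0.58 ± 0.14, while the related partner RXRA fell with -0.68 ± 0.09. ABCA1, the cholesterol exporter (147 kb), fell with -1.17 ± 0.20, and GRAMD1B, a sterol carrier (173 kb), fell with -1.27 ± 0.15. The medians of genes as long as these were -0.93 for ABCA1 and -1.13 for GRAMD1B. Of 13 genes that take isoprenoids from the mevalonate pathway into prenyl groups, dolichol and coenzyme Q, 5 rose, 4 fell and 4 did not pass. COQ2 rose with 0.46 ± 0.08 and DOLK with 0.44 ± 0.12, while PDSS2 (307 kb) fell with -2.71 ± 0.12 and FNTB with -0.46 ± 0.10. Genes of similar span had medians of -2.20 for PDSS2 and -0.27 for FNTB.

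Other fatty acid synthesis and NADPH supply had 6 of 21 tested genes higher, 4 lower and 11 not called. PGD, of the pentose phosphate pathway, rose with 0.67 ± 0.06 and OXSM, the mitochondrial ketoacyl synthase, with 0.65 ± 0.12. ME1, the cytosolic malic enzyme (221 kb), fell with -2.11 ± 0.09 and HSD17B12, a reductase of chain elongation (300.2 kb), with -1.82 ± 0.09. The medians of genes as long as these were -1.51 for ME1 and -2.09 for HSD17B12. Of 18 glycerolipid genes 7 fell, 4 rose and 7 did not pass. DGAT2, which makes triacylglycerol, rose with 1.14 ± 0.13 and 17.5 ± 0.92 CPM after nitidine chloride against 7.94 ± 1.23 in DMSO, and GPAM, the first acyltransferase, rose with 0.54 ± 0.07. AGPAT3 and AGPAT4, acyltransferases of 121 and 144 kb, fell with -1.10 ± 0.10 and -1.07 ± 0.09. Genes of similar span had medians of -0.74 for AGPAT3 and -0.90 for AGPAT4.

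Fatty acid oxidation had the smallest share of calls, with 4 of 22 tested genes higher, 2 lower and 16 not called, a share of 27.3% beside 51.7% of all tested genes. ACAA1, the peroxisomal thiolase, rose with 1.45 ± 0.07 and 81.3 ± 3.29 CPM after nitidine chloride against 29.7 ± 0.75 in DMSO, and CPT1C, the neuronal form of the carnitine transferase, rose with 0.57 ± 0.21 (adjusted p = 0.0487). ETFA, an electron carrier subunit, fell with -0.85 ± 0.08 and CPT1A, which loads fatty acids onto carnitine, with -0.24 ± 0.07. Genes of similar span had medians of -0.48 for ETFA and -0.41 for CPT1A. None of these 6 lists had as large a share of lower calls as the sterol branch (47.4%) or the fatty acid branch (62.5%), the nearest being glycerolipid synthesis with 38.9%. These shares are not adjusted for span, whose median was 33.81 to 49.25 kb in the 6 lists, 18.7 kb in the sterol and 72.8 kb in the fatty acid branch. With scaling by library size alone 6 of 19 sterol genes were lower, and the 6 lists were not counted on that scale.

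**Figure D4:**
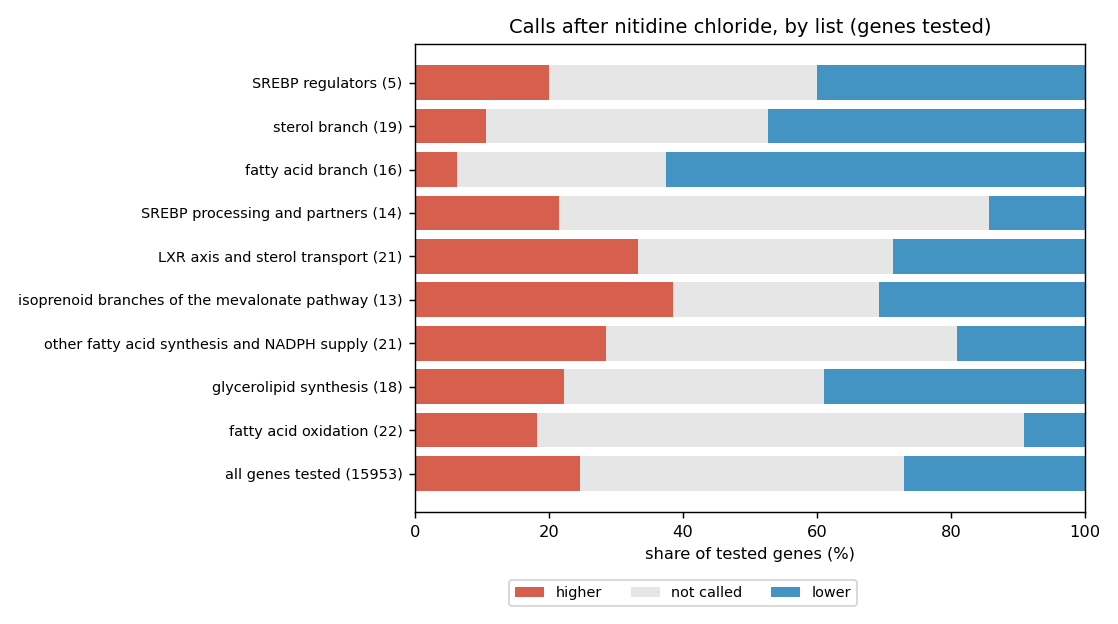
Share of tested genes called higher (red), not called (grey) and called lower (blue) after nitidine chloride in the 3 role groups of the members, in 6 other lists of lipid metabolism and in all 15953 tested genes, with the number tested in parentheses. The lower share is 47.4% in the sterol branch, 62.5% in the fatty acid branch and 27% over all genes.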

How the data were processed

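Messenger RNA libraries of HEK-293T cells were grouped by the sample labels (3 nitidine chloride, 3 DMSO). The deposited table held raw counts per gene and FPKM by the authors, per the file headers. The submitters' processing notes list HISAT2 2.0.4 and StringTie 1.3.0, with no roles. The sources used here do not give the counting tool, its strand setting or the build. Positions equalled those of GENCODE release 29 (GRCh38) for 38 of 40 members. For 33 of the 40 the length behind the deposited FPKM was within 1% of the summed length of all distinct exons, up to 3.50 times the merged exon length, so FPKM was used for marker checks alone.

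Tested genes had 10 or more counts on average and were compared with edgeR 4.0.16 (R 4.3.3), TMM scaling, with no covariate, and Benjamini-Hochberg adjustment over all 15953. Alternative fits left out each library, added a replicate block, or used no filter, a mean count of 50, DESeq2 1.42.0, library size scaling, limma-voom (limma 3.58.1), a threshold of 0.01 and, for span, a factor of 0.67. Promoters are from RefSeq (GRCh38.p14). Every member is named. Values in every library are given for the regulators, for members called with a log2 fold change of 1 or more in size, for the 4 highest and 4 lowest of each branch and for some others chosen after their values were seen. Other lists have up to 2 named genes per direction, and NFYB and RXRA were added after their values were seen. A gene that the rule names is not reported here. Members and lists were chosen with earlier results of these data known. Plots were drawn with matplotlib 3.10.9.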

Additional observations from a re-analysis of the deposited data

How the results depend on the processing

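With scaling by library size alone, members called higher numbered 10, sterol members 7 and fatty acid members 2 (against 4, 2 and 1), the medians were -0.11 for the sterol and -0.32 for the fatty acid branch, and PMVK (0.045) and FADS1 (0.053) changed sign, neither being called. At an adjusted p of 0.01, 2616 genes in all, 2 members and 0 sterol members were higher. Without overlapped members, which include all 4 that rose, 0 were higher. With no filter on low counts the sterol difference from genes of similar span was -0.35. Leaving out single libraries gave 2 to 5 members higher, 0 to 3 sterol members higher, sterol medians of -0.24 to -0.17 and sterol differences from similar span of -0.46 to -0.30. In those fits PMVK ranged from -0.15 to 0.016, SCD from -0.047 to 0.059 and FADS1 from -0.15 to 0.0046. The counts of lower members stayed between 16 and 22 in all alternatives. DESeq2, limma-voom and a mean count of 50 left the direction and call of all 40 members as they were. Over all tested genes, libraries of the same replicate number did not deviate together (correlations of deviations from the group means of 0.001, -0.055 and 0.04). Such correlations cannot show whether the numbers pair the libraries, and single genes may differ. The replicate block gave 4 higher and 21 lower members, as many as without it; SCAP lost its call (-0.26, adjusted p = 0.0771) and INSIG1 gained one (-0.84, adjusted p = 0.0455). With 3 libraries a group, small changes lay at the edge of detection, LSS (-0.22) being called and ELOVL1 (-0.20) not. The cause of these shifts was not tested.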
